A study of Mus musculus with 18 samples.

Results

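The comparison described here sets tibialis anterior (TA) muscle of tumor-bearing KPP mice against muscle of their matched controls. Its members were taken from the sample titles and are 6 of the 18 samples of a series on muscle wasting in cancer (cachexia): 3 KPP controls and 3 KPP tumor-bearing samples, each with the letter A, B or C. The other 12 samples belong to the LLC and C26 models, in which tumor cells are injected, with 3 control and 3 tumor-bearing samples in each model. All KPP samples are labelled male, of the strain C57/B6, and 100 ng of total RNA was loaded per sample. The treatment label states that tamoxifen at 1 mg per 10 g was given into the peritoneum of KPP mice to start tumor formation. In published work the name KPP stands for a pancreatic cancer model in which tamoxifen activates a Cre driven by a pancreas promoter. The labels name no allele, age or tumor stage, and do not say whether the controls carried the alleles or received tamoxifen. They also do not say that each sample is a separate mouse, so p-values measure the spread between these samples, which may be partly technical. RNA was read on the nCounter mouse inflammation panel, which counts color-barcoded probes bound to RNA molecules without amplification.

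In cachexia, patients and animals with cancer lose muscle and fat, often severely in pancreatic cancer. Circulating cytokines such as interleukin-6 act on muscle through STAT3 and C/EBP beta, and p38 kinases also take part in raising the ubiquitin ligases that mark muscle protein for breakdown. Complement is a cascade of plasma proteins: C1r and C1s start the classical pathway, factor B and factor D the alternative pathway, both lead to cleavage of C3, and C5b with C6 to C9 forms the pore. In resting muscle, the connective tissue cells between the fibers make several complement proteins.

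Of 248 panel genes outside the 6 housekeeping genes, 157 reached a normalized signal of at least 20 in at least 3 of the 6 samples and were tested. Of the 91 others, 71 stayed under 20 in every sample. The highest negative control in any of the 6 samples read 11.8. The counts behind the summed signal, estimated from the size of the smallest steps between low values, ran from 61293 in control B to 402521 in tumor B. At a signal of 100 these give a counting error of 7.77% in tumor B and 17.9% in control B. Counting error is thus largest in control B, and genes near the limit of 20 are the least certain. These errors leave out that of the background, which the values show was subtracted, so they are too small. Whole counts could not be recovered. No panel gene reads the tumor status itself. Mef2c, a transcription factor of muscle fibers, read between 4734 and 7999.6 in the 6 samples, while none of 6 T and NK cell marker genes passed this filter.

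With 3 samples against 3, 6 of the 157 tested genes (3.82%) passed an adjusted p of 0.05 in limma with Benjamini-Hochberg adjustment, all 6 of them lower in tumor-bearing muscle. They were C7, C1ra and C3 of the complement system, the interferon-induced genes Cxcl9 and Ifi27l2a, and the matrix protease Mmp9. No gene (0%) passed as higher, where 12 had an unadjusted p under 0.05, against 15 that were lower. These 27 genes are 17.2% of those tested. In 47 genes (29.9%) the 3 tumor-bearing samples did not overlap the 3 controls, 21 lower (13.4%) and 26 higher (16.6%). The median log2 fold change over all tested genes was 0.01, and all fold changes below are differences of mean log2(signal + 1), tumor-bearing minus control, unless a scale is named. Leaving out single samples left fewer calls in most cases: 3 without control A, 2 without control B, 1 without control C, 1 without tumor B and 3 without tumor C, and 7 without tumor A. C7 was among the calls in each of these. Cxcl9 passed the filter through its controls alone, so its call is not support of the same kind as the other 5.

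**Figure D1:**
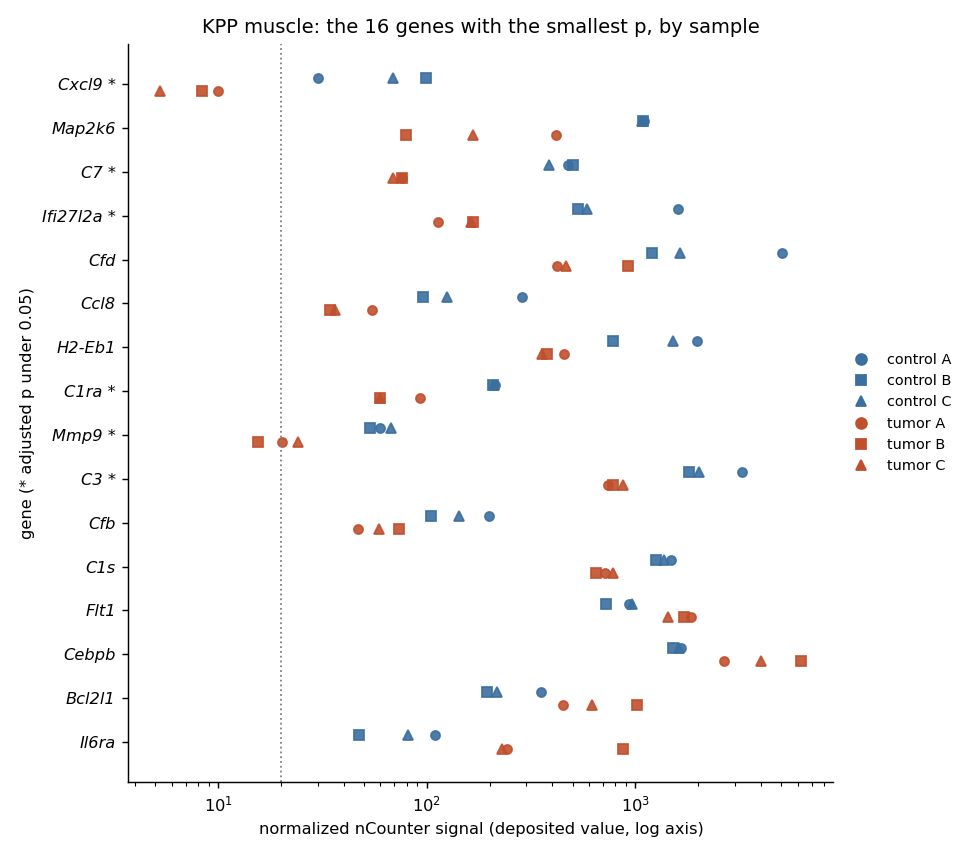
Normalized nCounter signal (log axis) of the 6 called genes and the 10 with the next smallest p, 1 point per sample, controls in blue and tumor-bearing samples in red, with the letter given by the symbol. In all 16 genes the 3 tumor-bearing samples lie on one side of the 3 controls, and C7 has the narrowest tumor-bearing values, from 68.8 to 76.5.

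Complement genes made up 3 of the 6 calls. C7, a component of the membrane attack pore, read 475, 501 and 387 in controls A, B and C and 76.2, 76.5 and 68.8 in tumors A, B and C. The tumor-bearing samples were close together and far from every control. The means were 455 ± 59.9 and 73.8 ± 4.34 (SD, n = 3 each), a log2 change of -2.60 (SE 0.20, limma adjusted p = 0.00133). C7 passed in all 17 alternatives tried, with adjusted p from 5.73e-05 to 0.0390. The stretch of 250 bases before the RefSeq start of C7 (GRCm38.p6, chr15:5063774-5064023, minus strand) is shown because C7 is the gene with the smallest p. The capitals mark a match to TTCNNNGAA, the palindrome that STAT factors recognize, which reads alike on both strands and begins 164 bases before the start.
C7: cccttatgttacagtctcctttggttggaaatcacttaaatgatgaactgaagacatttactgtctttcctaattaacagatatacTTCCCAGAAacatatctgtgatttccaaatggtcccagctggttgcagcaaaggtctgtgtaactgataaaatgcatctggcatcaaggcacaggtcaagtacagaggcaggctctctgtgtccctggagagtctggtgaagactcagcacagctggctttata
The same letters occur in 7.02% of 32851 RefSeq promoters of this length and in 14 of the 113 tested genes that have one there (12.4%), so the match is a description of the sequence only.

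C1ra, the protease C1r of the classical pathway, read 212, 208 and 209 in the controls and 92.8, 59.6 and 59.9 in the tumor-bearing samples. The controls were nearly equal, and tumor A lay above tumors B and C but under every control. C1ra fell by 1.59 on the log2 scale (SE 0.24, limma adjusted p = 0.0247). C1s, its partner protease, read 1473, 1252 and 1377 against 714, 649 and 783, a log2 change of -0.94 (SE 0.20) that did not pass (limma adjusted p = 0.0524). Masp1, a protease of the lectin pathway, went the other way in values, with 46.8, 66.5 and 34.8 in controls and 80.0, 167 and 97.8 in tumor-bearing samples (log2 change 1.18, limma adjusted p = 0.157). C2, C4a and the C1q chains C1qa and C1qb overlapped between the groups. Of the 7 tested genes of the classical and lectin pathways, 1 was called lower, against 3.82% of all tested genes, and none higher, and the median log2 change was -0.36.

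C3, on which the pathways converge, read 3236, 1799.8 and 2009.7 in the controls and 736, 783 and 874 in the tumor-bearing samples. Control A was the highest of the controls, and the lowest control was above every tumor-bearing sample. Mean C3 was 2348 ± 776 in controls and 798 ± 70.7 in tumor-bearing muscle (SD, n = 3 each), and it fell by 1.51 on the log2 scale (SE 0.28, limma adjusted p = 0.0395). The call was lost whenever any 1 of the 6 samples was left out (limma adjusted p from 0.0560 to 0.130) and under median centring (0.0556). Cfb, factor B, read 199.5, 105 and 143 against 46.9, 73.4 and 58.8 (log2 change -1.28, limma adjusted p = 0.0696). Cfd, factor D or adipsin, which fat cells secrete, read 5037, 1201 and 1644 against 419.9, 921 and 467. Its control A was far above the other controls, and the log2 change of -1.93 (limma adjusted p = 0.157) became -1.31 without control A. Of 6 tested genes of the alternative and terminal pathways, 2 were called lower and 4 did not overlap, all 4 lower, where 3.82% of all tested genes were called and 13.4% were lower without overlap. The median log2 change was -1.40, against 0.01 over all tested genes. C3ar1, the receptor for the C3a fragment, and Cd55, which protects host cells, overlapped between the groups.

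Several of these complement genes are also made by connective tissue cells. The 8 fibroblast and connective tissue markers, a list that holds C7, C1ra, C1s, C3 and Masp1, summed to between 5042 and 6735 in controls and between 2798 and 2998 in tumor-bearing samples. The members outside complement, Mmp3, Twist2 and Pdgfa, did not pass. Their control and tumor-bearing means were 42.4 and 33.7 for Mmp3, 33.8 and 35.25 for Twist2, and 1149 and 1029 for Pdgfa. Pdgfa was lower without overlap on the deposited values only, with a log2 change of -0.16. Twist2 spread 64.9-fold among the tumor-bearing samples, with a fitted log2 change of -0.97. The difference in the sum thus mostly repeats the complement genes above. In bulk muscle, fewer cells of a type and less RNA per cell cannot be told apart, and the part of cell makeup in these values was not tested. The 9 tested macrophage and monocyte markers overlapped between the groups in every case, with sums of 1407 to 2465 in controls and 1063 to 2610 in tumor-bearing samples. The 4 tested markers of alternatively activated macrophages summed to 1625 to 4162 in controls and 1389 to 3027 in tumor-bearing samples, with none called. Retnla dominates that sum, with means of 2792 in controls and 1614 in tumor-bearing samples. Chi3l3 went the other way, from a mean of 15.6 to 152 (fitted log2 change 3.26). Its controls averaged under the limit of 20 and spread 30.95-fold, so the size of that change is not measured. The groups overlapped on the deposited values. Chi3l3 passed only in the fit of all 18 samples (limma adjusted p = 0.0457). The 6 T and NK cell markers, none of which passed the filter, summed to 33.6 to 93.0 against 19.6 to 22.6. Ccl5 (means of 32.9 and 1.37) and Cd4 (12.5 and 1.78) carry that difference. Il2 went the other way (4.47 and 8.90), and Cd40lg, Fasl and Ifng overlapped, so the list did not go one way. The antigen presentation markers, which H2-Eb1 dominates, summed to 793 to 2057 against 407 to 464.

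Among interferon-induced genes, Ifi27l2a fell, and Cxcl9 passed the test with every tumor-bearing value under the limit of 20. Cxcl9, a chemokine that attracts T cells, read 30.1, 98.7 and 68.6 in the controls and 10.0, 8.36 and 5.29 in the tumor-bearing samples. All 3 tumor-bearing values lay under the limit of 20, where the highest negative controls of tumors A, B and C read 2.88, 9.88 and 11.8. The controls averaged 65.8 ± 34.4 (SD, n = 3). The fitted log2 change of -2.79 (SE 0.47, limma adjusted p = 0.031) is therefore no measure of size, since Cxcl9 passed the filter only through its controls. With values under 20 set to 20 the change was -1.51, a bound on its size, and it was not called (limma adjusted p = 0.0993). Ifi27l2a, a small interferon-induced membrane protein, read 1608, 530.4 and 584 against 113, 167 and 162. Control A was the highest, and the lowest control was still above every tumor-bearing sample. It fell by 2.44 on the log2 scale (SE 0.46, limma adjusted p = 0.0395), and the change was -1.93 without control A.

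The other interferon genes were less uniform. Ifit3, which is induced by type I interferon, read 326, 398 and 257 against 189.5, 202 and 102 without passing (log2 change -1.03, limma adjusted p = 0.177). Irf5, a transcription factor downstream of Toll-like receptors, read 313, 253 and 235 in controls and 72.4, 60.8 and 263 in tumor-bearing samples. Tumor C lay within the controls, so Irf5 overlapped (log2 change -1.33, limma adjusted p = 0.275), and without tumor C it was called at -1.98, while without tumor A or B it was -1.06 or -0.93 and not called (limma adjusted p = 0.339 and 0.409). Of 18 tested interferon genes, 2 were called lower, Cxcl9 being 1 of them, and none higher, beside 3.82% of all tested genes called lower. With Cxcl9 set aside, Ifi27l2a is the only call in this list. Of the 18, 4 did not overlap, all lower, beside 29.9% of all tested genes without overlap and 13.4% lower, and the median log2 change was -0.30. H2-Eb1, a class II antigen presentation chain, read 1984, 785 and 1517 against 456, 375 and 355 (log2 change -1.76, SE 0.37, limma adjusted p = 0.0524). All 3 tumor-bearing values lay below the lowest control. Ccl8, a monocyte-attracting chemokine, read 286, 95.5 and 125 against 54.6, 34.3 and 36.5 (log2 change -1.86, limma adjusted p = 0.0696). Of 8 tested chemokines and chemokine receptors, none was called and Ccl8 was the only one that did not overlap.

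**Figure D2:**
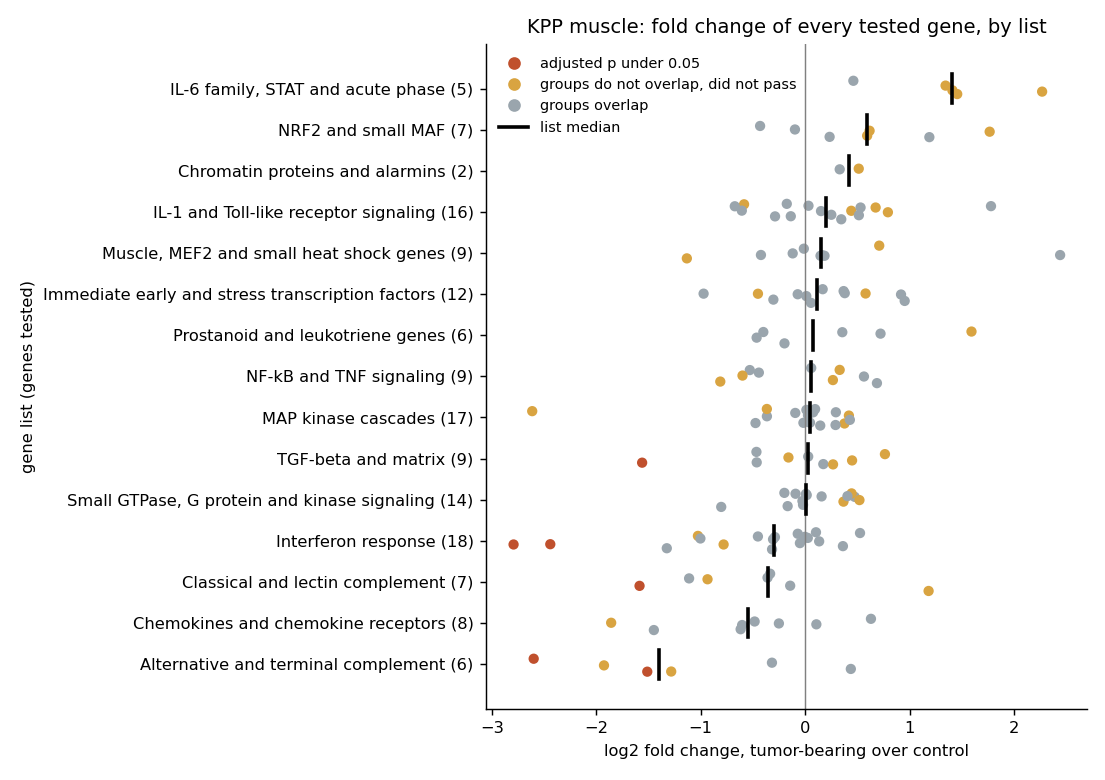
Log2 fold change (tumor-bearing minus control) of every tested gene in 15 gene lists, 1 point per gene, ordered by the list median (black bar), with the number of genes tested after each name. Red points passed an adjusted p of 0.05, all on the lower side, and the alternative and terminal complement list has the lowest median at -1.40 while the IL-6 family list has the highest at 1.41.

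Mmp9, a gelatin-degrading matrix protease that neutrophils and other cells release, read 59.9, 53.6 and 67.7 in controls and 20.2, 15.6 and 24.2 in tumor-bearing samples. It fell by 1.56 on the log2 scale (SE 0.24, limma adjusted p = 0.0247). The tumor-bearing values straddled the limit of 20. Of the other 8 tested genes of the TGF-beta and matrix list, none passed. Tgfbr1, a TGF-beta receptor kinase, read 884, 588 and 713 against 943, 1912 and 1007, with tumor B apart from the others. The other tested neutrophil marker, Il1b, did not pass. Cxcr2, a neutrophil marker that was not tested, went the other way, with means of 2.45 in controls and 19.2 in tumor-bearing samples.

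No gene of interleukin-6 signaling passed, and 4 of the 5 tested were higher without overlap, beside 16.6% of all tested genes. Il6ra, the receptor subunit that binds interleukin-6, read 110.0, 47.1 and 81.3 in controls and 242, 873 and 230.4 in tumor-bearing samples. Tumor B was far above tumors A and C, which were themselves above every control (log2 change 2.27, SE 0.60, limma adjusted p = 0.0869), and without tumor B the change was 1.64. Cebpb, which encodes C/EBP beta, a driver of acute phase genes, read 1660.5, 1519.5 and 1613 against 2663, 6244 and 4003. The controls lay within a narrow band and each tumor-bearing sample was above it (log2 change 1.34, SE 0.33, limma adjusted p = 0.0722). Bcl2l1, which encodes the survival protein Bcl-xL, read 353, 195 and 217 against 449, 1019 and 618 (log2 change 1.41, SE 0.38, limma adjusted p = 0.0976).

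Stat3 itself, the transcription factor between the receptor and these genes, read 1187, 1319.8 and 1140.0 against 1462, 2425 and 1314, where tumor C lay within the controls (log2 change 0.46, limma adjusted p = 0.382). Myc, a growth regulator and STAT3 target, read 192, 134 and 240.1 against 314, 1319 and 309.5 (log2 change 1.45, limma adjusted p = 0.275), and without tumor B the change was 0.76. The median log2 change of the 5 genes was 1.41. Il6 itself, the ligand, never exceeded 10.2 and was not tested.

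Map2k6, the kinase that activates p38, read 1098, 1088 and 1071 in controls and 416, 79.5 and 166 in tumor-bearing samples. The controls were almost equal, and the tumor-bearing samples spread 5.24-fold among themselves while all staying under them. The log2 change of -2.61 (SE 0.57) did not pass (limma adjusted p = 0.0547), and it passed without tumor A at -3.23 (limma adjusted p = 0.00938) but not without tumor B at -2.04 or tumor C at -2.57 (limma adjusted p = 0.0767 and 0.227). Mapk14, the p38 alpha kinase that Map2k6 activates, read 2295, 2270.2 and 2031 against 1963, 1289 and 1948 (log2 change -0.37, limma adjusted p = 0.413). Of 17 tested MAP kinase genes, none was called, 2 did not overlap on each side, beside 29.9% of all tested genes in either direction, and the median log2 change was 0.05, which turned to -0.16 on the rescaled values described below.

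No gene of the oxidative stress response passed, and the members did not all go one way. Nfe2l2, the transcription factor NRF2, read 977, 962 and 972 in controls and 1227, 1933 and 1322 in tumor-bearing samples (log2 change 0.59, limma adjusted p = 0.269). Keap1, which targets NRF2 for degradation, read 763, 901 and 821 against 1105, 1788 and 1029, which did not overlap on the deposited values and overlapped on the rescaled ones. The partner Maff, a small MAF protein, read 52.9, 27.8 and 59.4 against 69.8, 409.6 and 126, a log2 change of 1.77 that became 1.06 without tumor B. Mafg, another small MAF protein, read 207, 215 and 228 against 125, 248 and 133 (log2 change -0.43), overlapping on the deposited values and lower without overlap on the rescaled ones. Of 7 tested genes in this list, 3 did not overlap, all higher, beside 16.6% of all tested genes. Flt1, a receptor for VEGF on endothelial cells, read 930.0, 727 and 963 against 1838, 1713 and 1426 (log2 change 0.93, SE 0.22, limma adjusted p = 0.0696). Together with Ptgir, the other endothelial marker, it summed to 777 to 1015 in controls and 1499 to 1918 in tumor-bearing samples. Flt1 dominates that sum, with means of 873 and 1659. Ptgir, with means of 59.0 and 97.7, overlapped between the groups, so the sum mostly repeats Flt1.

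The remaining lists held no call, and their counts without overlap stand beside 29.9% of all tested genes, 13.4% lower and 16.6% higher. In IL-1 and Toll-like receptor signaling 4 of 16 tested genes did not overlap, 1 lower and 3 higher, among them the adaptor Myd88 as higher, and the median log2 change was 0.20 (0.00067 rescaled). In NF-kB and TNF signaling 2 of 9 did not overlap on each side of the deposited values, while 4 were lower and none higher on the rescaled ones. Tradd and Traf2, adaptors of the TNF receptor, were the lower ones on the deposited values: Tradd read 67.8, 53.6 and 40.3 against 31.7, 33.7 and 24.2, and Traf2 read 224, 286 and 257 against 164, 187 and 152. Neither passed (limma adjusted p = 0.179 and 0.193). Of 12 immediate early and stress transcription factors 1 did not overlap on each side, of 14 small GTPase, G protein and kinase genes 3 were higher without overlap, and of 6 prostanoid genes 1 was, the leukotriene receptor Cysltr1. On the rescaled values the small GTPase list and the IL-1 list each had 2 lower and 2 higher genes without overlap. Hmgb1, a chromatin protein that acts as an alarmin outside cells, was higher without overlap on the deposited values only, and Hmgn1 overlapped. In the muscle and MEF2 list 1 of 9 did not overlap on each side, and its median of 0.15 turned to -0.06 on the rescaled values.

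Hspb1 showed the widest difference among the 3 tumor-bearing samples of any gene with a mean of at least 100 there. Its product HSP27 is a small heat shock protein that muscle fibers hold in quantity. Signals were 3738, 3881 and 3534 in the controls and 2591, 50741 and 62299 in tumors A, B and C. Tumor A lay under the controls while tumors B and C were more than 10-fold above them, so the groups overlapped (log2 change 2.44, SE 1.18, limma adjusted p = 0.309). Hspb1 made up 24.8% and 32.8% of the summed gene signal in tumors B and C and 2.06% to 3.04% in the other 4 samples. Leaving out the low tumor A gave a log2 change of 3.92 (limma adjusted p = 0.000816), while leaving out tumor B gave 1.77 and tumor C 1.63, neither of which passed (limma adjusted p = 0.503 and 0.536). The related gene Hspb2 read 2942, 2351 and 2851 against 2426, 2537 and 4478 and overlapped. The 250 bases before the RefSeq start of Hspb1 (GRCm38.p6, chr5:135887669-135887918, plus strand) are shown since this gene carries the difference. Capitals mark GAANNTTC, an arrangement of the heat shock element, which was searched on both strands along with TTCNNGAA. It begins at 117 and 97 bases before the start.
Hspb1: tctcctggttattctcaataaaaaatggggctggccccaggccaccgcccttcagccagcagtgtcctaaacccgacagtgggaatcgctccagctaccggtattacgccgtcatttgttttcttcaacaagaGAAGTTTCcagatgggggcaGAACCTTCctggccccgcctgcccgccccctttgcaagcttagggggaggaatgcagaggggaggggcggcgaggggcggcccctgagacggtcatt
Either arrangement is in 12.8% of the 32851 promoters and in 16 of the 113 tested genes with one (14.2%), and the 2 matches are a description of the sequence only.

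**Figure D3:**
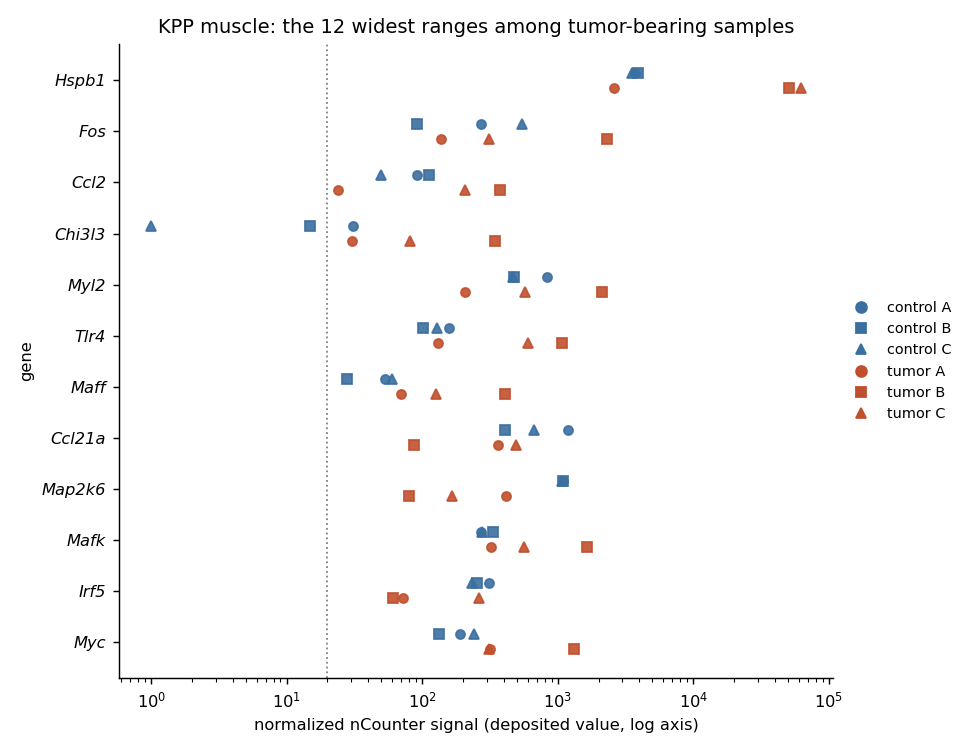
Signal in each sample for the 12 genes with the widest range among the 3 tumor-bearing samples, among genes with a tumor-bearing mean of at least 100, on a log axis, controls in blue and tumor-bearing samples in red with the letter as symbol. Hspb1 spans 24.0-fold, with tumor A under the controls and tumors B and C above them.

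Unevenness ran through the tumor-bearing group beyond Hspb1. In 117 of 157 genes the SD of the log2 signal was larger in the tumor-bearing samples, with a median SD of 0.43 against 0.25 in controls. Tumor B was the highest of the 3 in 99 genes and tumor A the lowest in 92. The rescaling to 4 housekeeping genes described below divides tumors A, B and C by 0.88, 1.30 and 1.08. It lowers tumor B against tumor A in every gene, and the order of the samples here is given on the deposited values only. The tumor-bearing range was over 4-fold in 19 genes, against 8 in controls. In a principal component analysis of the tested genes the first component, with 50.9% of the variance, placed tumor B at 10.5, tumor C at 4.83, tumor A at -0.57 and the controls between -5.61 and -3.86. The order of the tumor-bearing samples was the same in Tlr4, the endotoxin receptor, which read 131, 1071 and 603 in tumors A, B and C against 157, 102 and 129 in controls. Fos, an immediate early transcription factor, read 269.8, 92.2 and 544 in controls and 137, 2310.0 and 311 in tumors. The log2 change of Fos was 0.95 and turned to -0.21 without tumor B. That of Tlr4 was 1.78 (limma adjusted p = 0.275), and it was 2.65 without tumor A (0.0182), 1.14 without tumor B (0.399) and 1.55 without tumor C (0.411). In Hspb1, Tlr4 and Fos tumor A lay among or under the controls, while in C7, C3 and C1ra it was below every control. Over all tested genes the median distance from the control mean was 0.43 in tumor A, 0.61 in tumor B and 0.37 in tumor C (absolute log2 values).

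The 6 housekeeping genes, which set the scale of the deposited values to an equal geometric mean of 1769 in all 6 samples, differed among themselves. Pgk1, a glycolytic enzyme, read 5121, 5850 and 5657 in controls and 5910, 2600 and 3512 in tumors A, B and C. Gapdh, also glycolytic, read 43605, 58446 and 53086 against 60368, 28733 and 44724. Hprt, of purine salvage, read 296, 269 and 312 against 341, 740 and 405, higher in all 3 tumor-bearing samples. Pgk1 and Gapdh were lowest in the sample where Hprt was highest. Rescaling to Cltc, Gusb, Hprt and Tubb5 moved the median log2 change of all tested genes from 0.01 to -0.19. On that scale 10 genes passed (6.37%), 9 lower (5.73%) and 1 higher (0.637%). The 6 genes called before were among them, joined by H2-Eb1, C1s and Cfb as lower and Cebpb as higher. Without overlap there were then 31 lower (19.7%) and 17 higher (10.8%), against 21 and 26 before. Median centring gave 3 higher and 2 lower calls, and quantile normalization 4 and 5, so the split between higher and lower calls depends on the scale. Of the 6 genes called before, median centring kept only C7 and Ifi27l2a, and quantile normalization only C7, Ifi27l2a and C3.

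**Figure D4:**
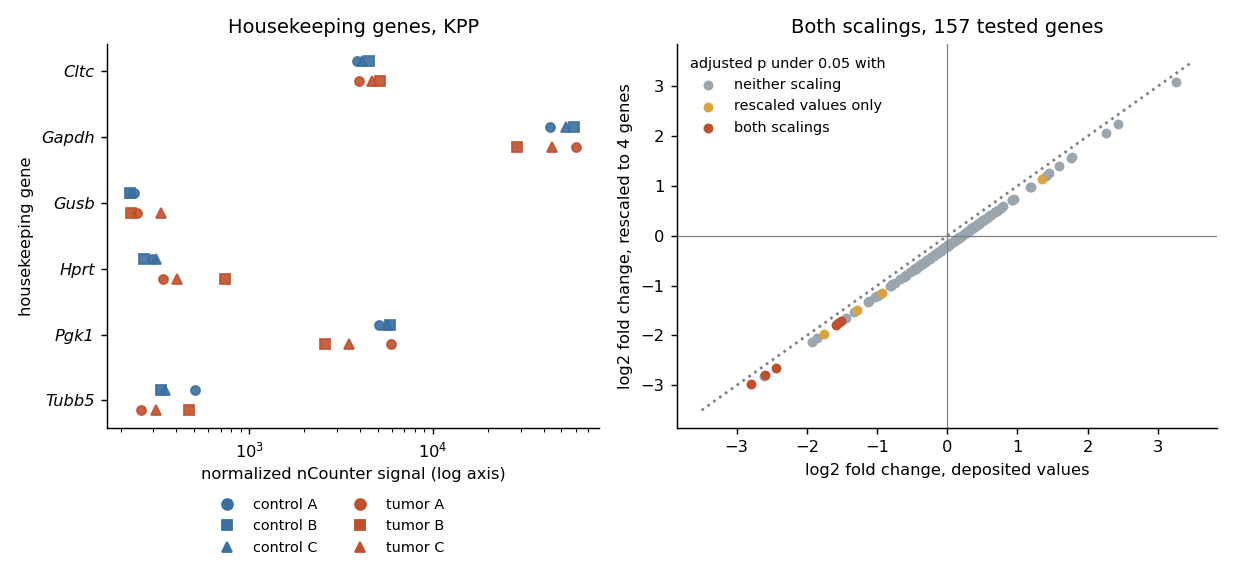
Left, signal (log axis) of the 6 housekeeping genes in each sample, controls in blue and tumor-bearing samples in red. Right, log2 change of the 157 tested genes with deposited values (x axis) against values rescaled to 4 housekeeping genes (y axis), with the line of equality dotted, where the points run below the line and the median moves from 0.01 to -0.19.

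The change in KPP muscle was then compared with that in the other models by a test of the difference between the tumor effects, each model's samples set against its own controls, since the values of each model were scaled apart. Against LLC, in which lung carcinoma cells are injected into mice of the same strain label, 6 of 127 shared genes (4.72%) differed at a limma adjusted p under 0.05. C7 fell in KPP but was at 116, 130 and 134 in LLC controls and 116, 151 and 129 in LLC tumor-bearing samples, which overlap. The difference of -2.65 (SE 0.23, limma adjusted p = 2.38e-05) had the smallest p. H2-Eb1 was higher in LLC tumor-bearing samples (345, 388 and 313) than in their controls (233, 189.6 and 199.9), and its difference was -2.50 (limma adjusted p = 0.00317). C1ra differed by -1.79, C3 by -1.98 and C1s by -1.15 (limma adjusted p = 0.00317, 0.00317 and 0.0096). Masp1 differed by 1.82 (limma adjusted p = 0.0271), with 2 of 3 LLC tumor-bearing samples at the lowest written value of 20. The fit shares one estimate of the spread, and the median SD of log2 values was 0.42 in KPP tumor-bearing samples and 0.25 in LLC ones.

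Against C26, colon carcinoma cells injected into CD2F1 mice, 15 of 126 shared genes (11.9%) differed. C7 read 90.1, 96.0 and 79.0 in C26 controls and 136, 114.5 and 338 in tumor-bearing samples, a difference of -3.57 (limma adjusted p = 0.00176). Map2k6 was lower in KPP but higher in C26, where it read 119, 80.9 and 54.9 in controls and 393, 382 and 401 in tumor-bearing samples, a difference of -4.88 (limma adjusted p = 0.00176). Stat3 read 787, 877 and 1048 in C26 controls and 244, 279 and 251 in tumor-bearing samples, against overlapping values in KPP, a difference of 2.26 (limma adjusted p = 0.00198). Il6ra differed by 3.93 (limma adjusted p = 0.0161). Nos2, inducible nitric oxide synthase, had a fitted difference of -1.44 (limma adjusted p = 0.0161), with a KPP change of only -0.10. Its C26 controls were all under 20 and it passed the C26 filter through the tumor-bearing samples alone, so the size of that difference is not measured. Besides these 5, the other 10 were Myc, Cebpb, Myd88, Irf5, Bcl2l1, Maff, Rela, C4a, Cfd and Tlr4. Of these, Myd88 and Maff were under 20 in all 3 C26 tumor-bearing samples and passed the C26 filter through the controls alone. The C26 controls differ in strain from the KPP mice, so strain and model cannot be told apart. The median SD of log2 values was 0.53 in C26 controls and 0.21 in KPP controls, and the fit shares one estimate of the spread. A single C26 control stood apart in some of the called genes. Cfd read 9604, 2003 and 1390 in C26 controls A, B and C, and Il6ra read 77.2, 74.2 and 213. In both comparisons the count of calls moved with the settings: without KPP control B there were 12 calls against LLC and 5 against C26, without KPP tumor A 10 against LLC, and without KPP tumor B there were 8 against C26.

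**Figure D5:**
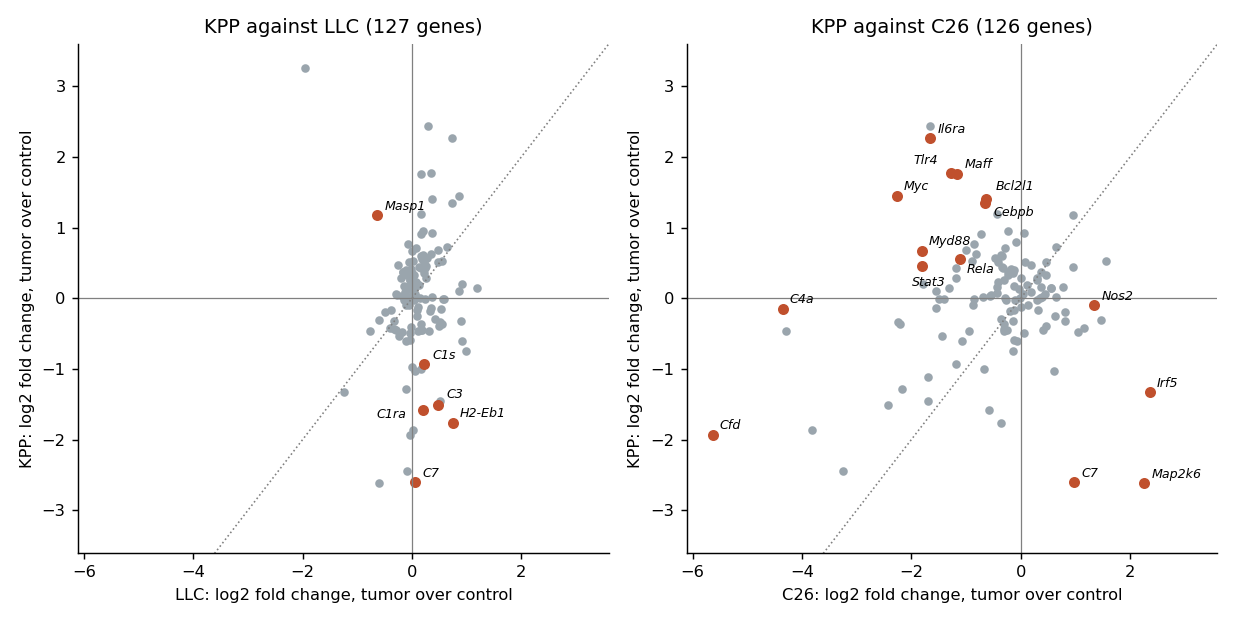
Log2 change of each gene in KPP (y axis, tumor-bearing minus control) against that in LLC (left, 127 genes) or C26 (right, 126 genes), with the line of equality dotted. Red points, named in italics, differed between the models at a limma adjusted p under 0.05, 6 on the left and 15 on the right, and C7 lies far below the line in both panels.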

How the data were processed

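The deposited values are a normalized nCounter signal per gene and sample, and the steps the authors took to obtain it are not stated in the labels or the file. The table has 266 rows, 254 genes, 8 negative and 4 positive controls. Names were matched to RefSeq GRCm38.p6 (248 symbols, 6 synonyms), and probe sequences were not used here, so close copies (C1ra, C4a, Ifi27l2a and their neighbors) could not be told apart. Groups and letters come from the sample titles. Values were taken as log2(signal + 1) in R 4.3.3 and tested with limma 3.58.1, KPP samples alone, on 157 genes at 20 or more in at least 3 of 6 samples, with adjusted p over all of them. The difference between models was an interaction in a fit of 12 samples. Named genes were the called genes, the 10 next smallest p, members of the lists, the housekeeping genes and the 5 smallest p of each difference. The comparison, lists and rules were chosen with earlier results of these data known. The values themselves show a subtracted background and a floor, so no count test was run. Alternatives covered scaling, added value, filter, samples in the fit, moderation, block and left-out samples.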

Additional observations from a re-analysis of the deposited data

Results flagged for a closer look

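The following differences between KPP and another model passed their test. C7 differed from LLC by -2.65 on the log2 scale and from C26 by -3.57. H2-Eb1 differed from LLC by -2.50. C1ra differed from LLC by -1.79, C3 by -1.98 and C1s by -1.15. Map2k6 differed from C26 by -4.88, and Nos2 by a fitted -1.44, with C26 controls under the limit of 20. Stat3 differed from C26 by 2.26 and Il6ra by 3.93.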

How the results depend on the processing

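With 6 calls in KPP, rescaling to 4 housekeeping genes gave 10, one fit of all 18 samples 17, trend and robust moderation 11, and the letter as replicate block 1, C7. Leaving out single samples gave 1 to 7. The labels do not say whether the letters pair the samples. Deviations of same-lettered samples correlated at -0.29, -0.13 and 0.02, which cannot decide it with 3 samples per group. Against LLC, with 6 calls, the rescaled values and median centring gave 10 each, no filter 11, all 18 samples 1, and left-out KPP samples 5 to 12. Against C26, with 15 calls, the rescaled values gave 24, all 18 samples 24, the replicate block 3, and left-out KPP samples 5 to 21, and no LLC or C26 sample was left out. The count of genes without overlap stayed within 1.5 times of 47 in the alternatives, which were added after seeing the data. Over the 6 called genes and the 10 next smallest p, no direction changed in 271 values under alternatives, where 40 no longer passed and 37 came to pass. The groups of these genes do not overlap, so leaving out a sample could not turn a direction, and several other settings keep the same fold change. The unchanged direction is therefore no measure of stability. Outside these 16, Fos turned from 0.95 to -0.21 without tumor B. C7 passed in 17 of 17 alternatives, Mmp9 and Ifi27l2a in 10, C1ra in 9, C3 in 8 and Cxcl9 in 7 of 16. Depth limits the genes near 20 in control B most.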

Other observations

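Among the 91 genes that did not pass the filter, 8 were lower and 5 higher without overlap between the groups, most of them at levels near the negative controls. Of the tested genes, 13.4% were lower and 16.6% higher without overlap. The lowest written value was 3.22 in control B and 1.00 to 1.27 in the other samples. A gene at the floor in every sample thus reads highest in control B. Ccl5, a T cell and platelet chemokine, read 8.12, 50.3 and 40.3 in controls and 1.27, 1.73 and 1.11 in tumor-bearing samples. Cd4, a T helper cell marker, read 15.2, 14.9 and 7.42 against 2.39, 1.00 and 1.95. The T and NK cell list did not go one way. Il2 was higher without overlap, at 4.61, 3.22 and 5.59 against 7.48, 8.36 and 10.9, and Cd40lg, Fasl and Ifng overlapped. Cxcr2, a neutrophil chemokine receptor, read at most 5.24 in controls and at least 15.1 in tumor-bearing samples, while Mmp9 of the same marker list was lower. With no filter, Cd4 and Cxcr2 passed (limma adjusted p = 0.0470 for both), but the lower group of each lies at or near the lowest written values, so no fold is given.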
